A study of Homo sapiens with 6 samples.

Results

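The genes described here are 44 protein-coding genes of the short arm of human chromosome 18, taken by symbol from a list, out of 19942 gene symbols measured. GENCODE 29 (build GRCh38) places all 44 on that arm, between positions 158383 and 14132490. The list was drawn up with the FPKM of the untransfected libraries known, so the difference between the untransfected libraries is given below as a description, with no test. The values come from RNA sequencing of HCT116 cells, a line grown from a human colorectal carcinoma, in 6 libraries. Its cells were either resistant to 5-fluorouracil, a pyrimidine analogue that blocks thymidylate synthase and enters RNA and DNA, or parental wild-type cells. Each kind of cell was transfected with siRNA against EHMT2, transfected with control siRNA, or left untransfected. EHMT2 encodes the histone H3K9 methyltransferase G9a. Each of these 6 groups held 1 library here, so a pair of libraries has no replicate check. The labels do not say how many clones the resistant cells stem from, and one label of the untransfected resistant library writes 5fu where the transfected resistant libraries have 5fuR.

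Genes on one chromosome arm are neighbours and need not share a task in the cell. They share their DNA template, so that gain or loss of an arm, a common event in colorectal cancer, can change the dose of many messages at once, and neighbouring genes can also share promoter regions. The short arm of chromosome 18 carries TYMS, which encodes thymidylate synthase, the enzyme blocked by 5-fluorouracil. Its other genes serve protein turnover, respiration, RNA processing, cell division, the cytoskeleton, membrane traffic and signalling. The files hold RNA values only.

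Levels are in FPKM, sequenced fragments scaled to transcript length and library size. Every ratio below is the difference of 2 libraries in log2(FPKM + 1), so that 1 stands for 2-fold. Summed over genes, FPKM came to between 360695 and 446143, and 11240 to 11722 genes had an FPKM of 1 or more. The files give no read counts, so depth is unknown. More RNA per cell and more cells with the RNA cannot be told apart. The lowest value above 0 lay between 0.172 and 0.264, and genes not detected are listed at 0. EHMT2 had an FPKM of 3.80 with EHMT2 siRNA and 19.5 with control siRNA in resistant cells, and 8.58 with EHMT2 siRNA and 31.7 with control siRNA in parental cells, against 27.3 in untransfected resistant and 19.8 in untransfected parental cells. Epithelial markers were present in every library, with EPCAM between 70.9 and 185 and KRT8 between 625 and 1112. Of 4 intestinal markers, CDX2 was detected in every library, between 2.81 and 4.58, and CDX1, VIL1 and CDH17 were listed at 0 in all, as were PTPRC, CD3E, COL1A2, DCN, PECAM1 and VWF of leukocytes, fibroblasts and endothelium, while CD68 was at most 4.99 and COL1A1 at most 9.79.

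Sequences of 5 start regions are shown because contrasts under EHMT2 siRNA, described further on, concern their genes. NDC80 and METTL4 start 2 bases apart on opposite strands, and FAM210A and RNMT overlap by their first bases in the same way, yet the members of each pair differed in whether they passed the test under EHMT2 siRNA. SPIRE1 and PSMG2, another divergent pair with neither gene called, are not shown. MYL12A and MYL12B, adjacent genes for near-identical proteins, had the largest estimates of the list under EHMT2 siRNA over both lines. Each sequence runs from 250 bases before to 50 bases after a RefSeq start (GRCh38.p14), in lower case. RefSeq and GENCODE starts differ for NDC80, METTL4 and FAM210A, so the distances above do not hold between the windows shown. Capitals mark the GC box GGGCGG and the CCAAT box, read on both strands and without overlap. The TATA box TATAAA and the CArG box were searched as well and are in none of the 5.
NDC80, chr18:2571307-2571606, plus strand: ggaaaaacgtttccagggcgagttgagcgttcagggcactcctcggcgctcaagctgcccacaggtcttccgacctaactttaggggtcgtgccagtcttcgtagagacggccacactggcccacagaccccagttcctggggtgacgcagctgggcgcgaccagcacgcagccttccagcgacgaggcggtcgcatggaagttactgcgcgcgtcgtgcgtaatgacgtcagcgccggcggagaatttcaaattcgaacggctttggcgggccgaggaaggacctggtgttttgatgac
METTL4, chr18:2571456-2571755, minus strand: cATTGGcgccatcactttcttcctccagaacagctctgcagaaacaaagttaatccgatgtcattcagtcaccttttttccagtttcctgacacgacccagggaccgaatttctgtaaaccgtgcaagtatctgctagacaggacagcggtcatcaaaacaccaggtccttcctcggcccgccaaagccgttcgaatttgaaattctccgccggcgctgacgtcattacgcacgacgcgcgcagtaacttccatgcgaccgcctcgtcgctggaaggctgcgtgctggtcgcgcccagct
FAM210A, chr18:13726509-13726808, minus strand: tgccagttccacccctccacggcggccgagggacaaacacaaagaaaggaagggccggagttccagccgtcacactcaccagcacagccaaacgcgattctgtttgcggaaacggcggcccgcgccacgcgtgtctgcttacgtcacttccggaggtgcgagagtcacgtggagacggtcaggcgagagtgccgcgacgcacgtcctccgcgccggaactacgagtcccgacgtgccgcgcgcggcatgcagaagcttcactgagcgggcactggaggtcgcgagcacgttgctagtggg
MYL12A, chr18:3247232-3247531, plus strand: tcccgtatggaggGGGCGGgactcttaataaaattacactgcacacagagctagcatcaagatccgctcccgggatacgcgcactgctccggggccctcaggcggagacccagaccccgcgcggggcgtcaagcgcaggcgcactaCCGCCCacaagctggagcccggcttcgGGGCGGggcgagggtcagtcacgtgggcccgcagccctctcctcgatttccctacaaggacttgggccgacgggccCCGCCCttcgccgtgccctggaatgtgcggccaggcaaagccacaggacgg
MYL12B, chr18:3261883-3262182, plus strand: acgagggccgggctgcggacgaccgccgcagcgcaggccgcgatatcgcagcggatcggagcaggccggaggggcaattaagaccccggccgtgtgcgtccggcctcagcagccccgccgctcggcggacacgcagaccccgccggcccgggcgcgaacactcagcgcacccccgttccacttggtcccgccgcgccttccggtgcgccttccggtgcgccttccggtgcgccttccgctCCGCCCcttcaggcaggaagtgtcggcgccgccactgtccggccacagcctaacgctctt

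The NDC80 and METTL4 windows share 151 bases, read from opposite strands, and the only CCAAT box lies in the part that METTL4 has alone. The window shown for MYL12A has 4 GC boxes and that for MYL12B has 1. Each of these genes has 3 windows, and those not shown hold no GC box, while some hold a CCAAT box. Among 74 windows of the 40 members with an entry, 62.2% hold a GC box and 21.6% a CCAAT box, against 45.0% and 34.6% of all 35116 windows. For the TATA box the shares are 6.76% of the members' windows and 11.5% of all, and for the CArG box 1.35% and 1.29%. The members' windows had a median of 30 CG dinucleotides, against 14 over all windows. A match is a sequence of letters and not a shown binding site, and the starts used in these cells were not measured.

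In untransfected cells nearly all detected genes of the list were more abundant in the resistant library. Of the 44 genes, 38 were detected, and 34 of these were at least 2-fold higher in resistant than in parental cells, while 4 were higher by less and 0 were lower. The other 6 were listed at 0 in every library and are not measured. The median ratio of the 38 was 1.60, with quartiles of 1.42 and 1.78. In FPKM the median fold was 3.25, and 29 genes lay between 2-fold and 5-fold, 5 above and 4 below. Among all genes 3.48% were at least 2-fold higher in this pair and 3.92% lower. The list was chosen on this pair, so the counts only describe it.

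**Figure D1:**
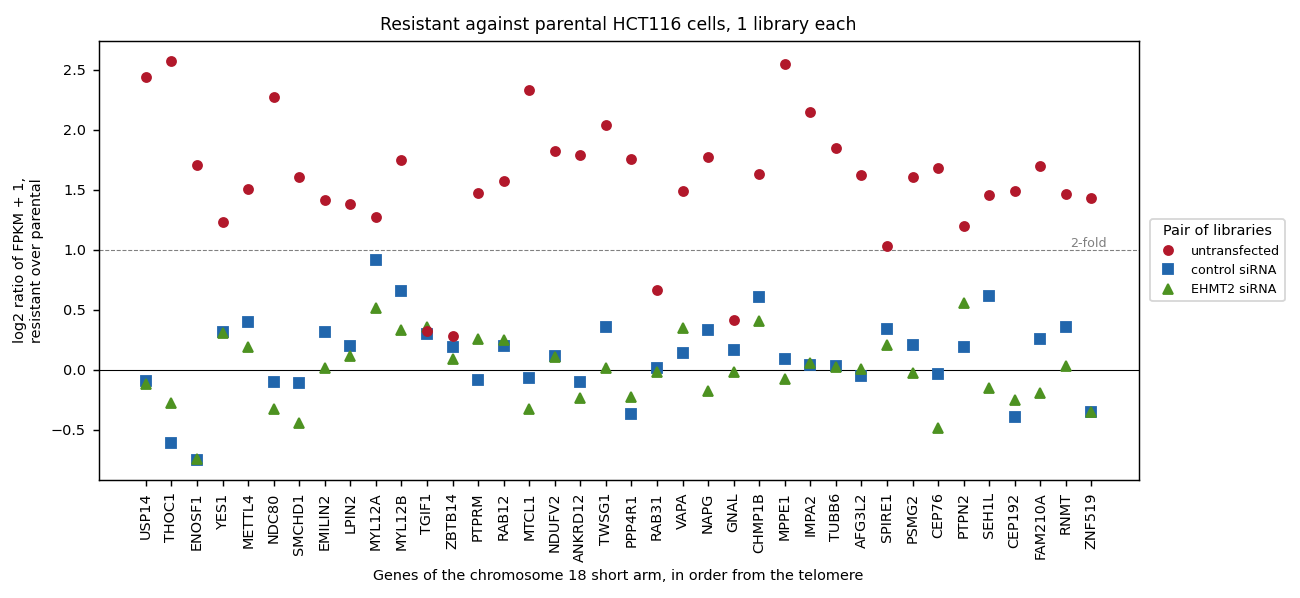
Log2 ratio of FPKM + 1, resistant over parental, for the 38 detected genes in their order from the telomere, with 1 point for each pair of libraries and the 2-fold ratio as a dashed line. The untransfected pair lies above the line in 34 genes, and both siRNA pairs stay below it in all.

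The untransfected resistant library stood apart from the other 5. The 44 genes together made up 0.820% of its summed FPKM, against 0.228% in untransfected parental cells. The share with EHMT2 siRNA was 0.469% for resistant cells and 0.398% for parental cells, and with control siRNA 0.282% for resistant and 0.212% for parental cells. Without MYL12A and MYL12B it was 0.444% in the untransfected resistant library and 0.1201% to 0.1713% in the others. By gene, 36 of the 38 had their highest level in the untransfected resistant library. In FPKM, 28 were at least 2-fold above every other library. The exceptions to the 36 were ZBTB14, highest in resistant cells with control siRNA, and GNAL, highest in parental cells with EHMT2 siRNA. The list was chosen with this library known, so these counts only describe it. The matching shares over all genes were not worked out.

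**Figure D2:**
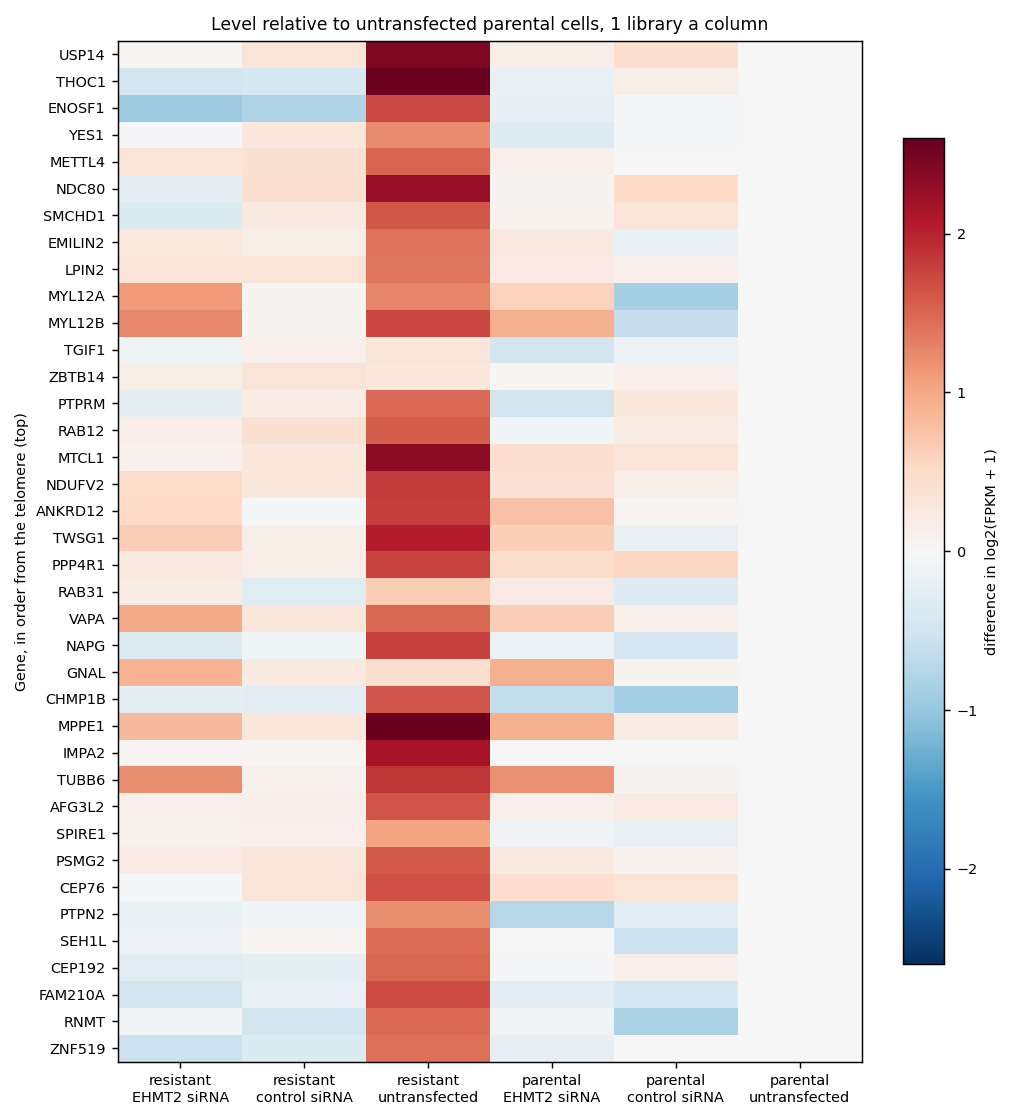
Level of each detected gene in the 6 libraries as the difference in log2(FPKM + 1) from untransfected parental cells, with genes in order from the telomere and 1 library a column. The column of untransfected resistant cells is the highest in 36 of 38 rows, and MYL12A, MYL12B and TUBB6 are also higher in both EHMT2 siRNA columns than in the control siRNA columns.

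Of the genes of protein turnover, USP14 had one of the highest ratios and PSMG2 one at the median of the list. USP14, a deubiquitinase that trims chains on substrates at the proteasome, had 10.8 FPKM in resistant and 11.8 FPKM in parental cells with EHMT2 siRNA, 13.5 in resistant and 14.4 in parental cells given control siRNA, and 60.8 in resistant and 10.4 in parental cells left untransfected. Its level in untransfected resistant cells was 5.83 times that of untransfected parental cells, and the other 5 libraries lay close together. PSMG2, a chaperone of proteasome assembly, had 66.0 in untransfected resistant and 21.1 in untransfected parental cells, and 22.6 to 26.2 in the 4 siRNA libraries. Part of its exons, 16.7% of bases, lies under exons of CEP76 and SPIRE1, and the library kit does not mark strand, so reads of overlapping genes cannot be told apart.

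The mitochondrial genes were similar to one another. NDUFV2, an iron-sulfur subunit of respiratory complex I, had 268 in untransfected resistant and 74.8 in untransfected parental cells, and 83.6 to 104 in the siRNA libraries. AFG3L2, a subunit of the inner-membrane m-AAA protease, had 66.3 in untransfected resistant and 20.8 in untransfected parental cells, and 22.9 to 24.2 with siRNA. FAM210A, a mitochondrial protein, had 22.6 in untransfected resistant and 6.29 in untransfected parental cells, and 4.23 to 5.38 with siRNA. Their ratios of 1.82, 1.63 and 1.70 lie within the quartiles of the list except that of NDUFV2, which is just above. Exons of another gene overlap 28.4% of the exonic bases of NDUFV2.

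Among the genes of RNA processing and chromatin were both the highest and the lowest ratio of the 38 detected genes of the list. THOC1, a subunit of the THO complex that couples transcription to mRNA export, had 6.62 FPKM in resistant and 8.25 FPKM in parental cells with EHMT2 siRNA, 6.68 in resistant and 10.7 in parental cells given control siRNA, and 62.0 in resistant and 9.57 in parental cells left untransfected. Its level in the untransfected resistant library was 6.48 times that in the untransfected parental one, whereas with either siRNA it was lower in resistant than in parental cells. RNMT, which methylates the mRNA cap, had 10.7 FPKM in resistant and 10.4 FPKM in parental cells with EHMT2 siRNA, 7.87 in resistant and 5.94 in parental cells given control siRNA, and 32.8 in resistant and 11.3 in parental cells left untransfected. It was lowest in the control siRNA libraries of both lines. SMCHD1, a chromatin protein needed for silencing on the inactive X chromosome, had 9.60 FPKM in resistant and 13.5 FPKM in parental cells with EHMT2 siRNA, 14.8 in resistant and 16.1 in parental cells given control siRNA, and 40.1 in resistant and 12.5 in parental cells left untransfected. The untransfected resistant library was more than 2-fold above each of the others.

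METTL4, a putative adenine methyltransferase, had 9.12 in untransfected resistant and 2.56 in untransfected parental cells, and 2.56 to 3.70 with siRNA. ANKRD12, an ankyrin repeat protein that binds nuclear receptor coactivators, had 16.0 in untransfected resistant and 3.93 in untransfected parental cells, and 3.79 to 7.35 with siRNA. ZNF519, a zinc finger gene, had 4.03 in untransfected resistant and 0.866 in untransfected parental cells, and was below 1 in every other library too. ZNF519 was thus counted only because of the library in which it was high.

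The 4 genes of cell division and the nuclear pore were all at least 2-fold higher. NDC80, the kinetochore protein that grips microtubules, had 10.7 FPKM in resistant and 13.7 FPKM in parental cells with EHMT2 siRNA, 17.6 in resistant and 19.0 in parental cells given control siRNA, and 66.6 in resistant and 13.0 in parental cells left untransfected. Untransfected resistant cells were far above the rest, and EHMT2 siRNA gave the lower value in each line. CEP192, a scaffold of the pericentriolar material, had 16.9 in untransfected resistant and 5.37 in untransfected parental cells, and 4.17 to 6.02 with siRNA. CEP76, which limits centriole duplication, had 12.8 in untransfected resistant and 3.33 in untransfected parental cells, and 3.16 to 4.82 with siRNA. SEH1L, a subunit of the nuclear pore Y complex, had 52.0 in untransfected resistant and 18.3 in untransfected parental cells. With siRNA SEH1L lay between 12.0, in parental control siRNA cells, and 19.0, in resistant control siRNA cells, so a single parental library set the low end.

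The cytoskeletal genes held the most abundant messages of the list. MYL12B, a regulatory light chain of nonmuscle myosin, had 629 FPKM in resistant and 501 FPKM in parental cells with EHMT2 siRNA, 276 in resistant and 174 in parental cells given control siRNA, and 887 in resistant and 264 in parental cells left untransfected. MYL12A, its neighbour and paralogue, had 476 FPKM in resistant and 333 FPKM in parental cells with EHMT2 siRNA, 229 in resistant and 121 in parental cells given control siRNA, and 529 in resistant and 219 in parental cells left untransfected. Both were highest in untransfected resistant cells, next highest in resistant cells with EHMT2 siRNA and lowest in parental cells with control siRNA. Of the 50-base stretches in MYL12B transcripts 3.94% also occur in MYL12A, so a small share of reads of that length could belong to either.

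TUBB6, a class V beta-tubulin, had 82.9 FPKM in resistant and 81.7 FPKM in parental cells with EHMT2 siRNA, 38.0 in resistant and 37.1 in parental cells given control siRNA, and 129 in resistant and 35.1 in parental cells left untransfected. The lines were alike under each siRNA, and both were higher with EHMT2 siRNA. TUBB6 overlaps AFG3L2 over 20.3% of its exonic bases, and AFG3L2 did not share this pattern. MTCL1, which crosslinks microtubules, had 32.4 in untransfected resistant and 5.65 in untransfected parental cells, and 6.17 to 8.0 with siRNA. SPIRE1, an actin nucleator, had 16.7 in untransfected resistant and 7.67 in untransfected parental cells, and 6.54 to 8.56 with siRNA. Its ratio of 1.03 was the lowest of those past 2-fold, next to 0.66 for RAB31 just below. Exons of other genes, PSMG2 among them, overlap 27.3% of the exonic bases of SPIRE1. EPB41L3, a membrane skeleton protein, was listed at 0 throughout.

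Of the membrane traffic genes, 5 of 6 passed 2-fold. MPPE1, which remodels GPI anchors, had 7.60 FPKM in resistant and 8.09 FPKM in parental cells with EHMT2 siRNA. It had 4.82 in resistant and 4.47 in parental cells given control siRNA, and 27.0 in resistant and 3.78 in parental cells left untransfected. Its fold of 7.15 between the untransfected libraries was the highest of the list, but 36.3% of its exonic bases overlap other genes, chiefly GNAL, so its level is uncertain. CHMP1B, an ESCRT-III subunit, had 16.7 FPKM in resistant and 12.3 FPKM in parental cells with EHMT2 siRNA, 16.2 in resistant and 10.3 in parental cells given control siRNA, and 63.1 in resistant and 19.7 in parental cells left untransfected. It was lowest in the parental siRNA libraries. VAPA, which tethers other membranes to the endoplasmic reticulum, had 51.8 FPKM in resistant and 40.5 FPKM in parental cells with EHMT2 siRNA, 31.5 in resistant and 28.5 in parental cells given control siRNA, and 74.1 in resistant and 25.7 in parental cells left untransfected. After the untransfected resistant library its highest values were those with EHMT2 siRNA. NAPG, a SNAP protein that helps to recycle SNARE complexes, had 33.2 in untransfected resistant and 9.03 in untransfected parental cells, and 6.41 to 8.34 with siRNA. RAB12, a small GTPase of endosomal traffic, had 49.3 in untransfected resistant and 15.9 in untransfected parental cells, and 15.1 to 21.1 with siRNA.

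Among signalling genes YES1, a SRC-family tyrosine kinase, had 59.8 in untransfected resistant and 24.9 in untransfected parental cells, and 19.6 to 30.2 with siRNA. PTPN2, a tyrosine phosphatase that restrains JAK and STAT signals, had 61.6 in untransfected resistant and 26.2 in untransfected parental cells, and 15.4 to 24.5 with siRNA. Both were at the low end of the list, with ratios of 1.23 and 1.20. PTPRM, a receptor phosphatase of cell contacts, had 2.79 FPKM in resistant and 2.17 FPKM in parental cells with EHMT2 siRNA, 4.07 in resistant and 4.38 in parental cells given control siRNA, and 11.3 in resistant and 3.44 in parental cells left untransfected. Its lowest value was in parental cells with EHMT2 siRNA. TWSG1, a secreted protein that binds bone morphogenetic proteins, had 19.2 FPKM in resistant and 19.0 FPKM in parental cells with EHMT2 siRNA, 13.6 in resistant and 10.4 in parental cells given control siRNA, and 52.6 in resistant and 12.0 in parental cells left untransfected. It was higher with EHMT2 siRNA than with control siRNA in both lines. PPP4R1, a regulatory subunit of protein phosphatase PP4, had 41.5 in untransfected resistant and 11.5 in untransfected parental cells, and 13.1 to 17.2 with siRNA. ARHGAP28, APCDD1, PIEZO2 and LDLRAD4 of this group were listed at 0 throughout.

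The metabolic genes were all past 2-fold. IMPA2, an inositol monophosphatase, had 6.96 FPKM in resistant and 6.68 FPKM in parental cells with EHMT2 siRNA, 7.0 in resistant and 6.77 in parental cells given control siRNA, and 33.3 in resistant and 6.74 in parental cells left untransfected. The 5 lower libraries differed little, so that only untransfected resistant cells stood out. LPIN2, a phosphatidate phosphatase, had 9.22 in untransfected resistant and 2.92 in untransfected parental cells, and 3.31 to 3.96 with siRNA. ENOSF1, which runs antisense to the end of TYMS and encodes a sugar acid dehydratase, had 5.47 FPKM in resistant and 9.81 FPKM in parental cells with EHMT2 siRNA, 6.16 in resistant and 11.0 in parental cells given control siRNA, and 39.7 in resistant and 11.5 in parental cells left untransfected. It was highest in untransfected resistant cells but lowest in the transfected resistant cells. EMILIN2, an extracellular matrix glycoprotein, had 13.9 in untransfected resistant and 4.59 in untransfected parental cells, and 3.98 to 5.67 with siRNA, while LAMA1, a laminin chain, was listed at 0.

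The 4 detected genes that did not reach 2-fold were TGIF1, ZBTB14, RAB31 and GNAL. TGIF1, a homeobox corepressor of TGF-beta signalling, had 71.5 FPKM in resistant and 55.6 FPKM in parental cells with EHMT2 siRNA, 86.1 in resistant and 69.8 in parental cells given control siRNA, and 97.8 in resistant and 77.9 in parental cells left untransfected. It was somewhat higher in resistant than in parental cells in all 3 pairs, with ratios of 0.32 untransfected, 0.30 with control siRNA and 0.36 with EHMT2 siRNA. ZBTB14, a zinc finger repressor, had 3.34 FPKM in resistant and 3.08 FPKM in parental cells with EHMT2 siRNA, 3.93 in resistant and 3.32 in parental cells given control siRNA, and 3.75 in resistant and 2.91 in parental cells left untransfected. No library of ZBTB14 stood apart, and its ratio of 0.28 in the untransfected pair was the lowest of the 38. TGIF1 and ZBTB14 are next to each other among the detected genes, between MYL12B and PTPRM, which had ratios of 1.74 and 1.47.

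RAB31, a small GTPase of endosomal traffic, had 15.3 FPKM in resistant and 15.5 FPKM in parental cells with EHMT2 siRNA, 10.4 in resistant and 10.3 in parental cells given control siRNA, and 21.4 in resistant and 13.2 in parental cells left untransfected. GNAL, the alpha subunit of the olfactory G protein, had 3.76 FPKM in resistant and 3.82 FPKM in parental cells with EHMT2 siRNA, 1.97 in resistant and 1.65 in parental cells given control siRNA, and 2.38 in resistant and 1.53 in parental cells left untransfected. GNAL was higher in both EHMT2 siRNA libraries than in the untransfected resistant one, and 28.1% of its exonic bases overlap other genes, MPPE1 among them. Because 1 is added to each FPKM, a log2 ratio understates the change of such a low gene, yet in FPKM the folds were also small, at 1.26 for TGIF1, 1.29 for ZBTB14, 1.63 for RAB31 and 1.55 for GNAL.

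The ratio had little relation to place, level or length along the arm. The telomeric 13 detected genes had a median of 1.51, the middle 12 of 1.70 and the 13 nearest the centromere of 1.60. Across the 38 genes, which share the same libraries and are not replicates, the ratio correlated with start position at r = −0.07 (Spearman rho −0.14), with the level in parental cells at r = −0.02 (rho 0.02) and with log exonic length at r = −0.05 (rho −0.13). The interquartile range of the ratio was 0.36 for the members and 0.58 for all genes in this pair, on which the list was chosen. It was 0.40 for the members and 0.51 for all genes with EHMT2 siRNA, and 0.39 for the members and 0.47 for all genes with control siRNA.

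Of the genes on this arm outside the list, PRELID3A, a PRELI-domain protein, had 9.92 in untransfected resistant and 3.63 in untransfected parental cells. TYMS had 294 in untransfected resistant and 46.1 in untransfected parental cells, a ratio of 2.65, and ratios of −0.59 with control siRNA and −0.76 with EHMT2 siRNA. On the long arm of chromosome 18, 6 of 118 genes were at least 2-fold higher and the median ratio was 0.16. Over 23 other chromosomes or arms the median ran from −0.20 on chromosome 17 to that 0.16, and the share of genes at least 2-fold higher from 0.817% to 5.08%.

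**Figure D3:**
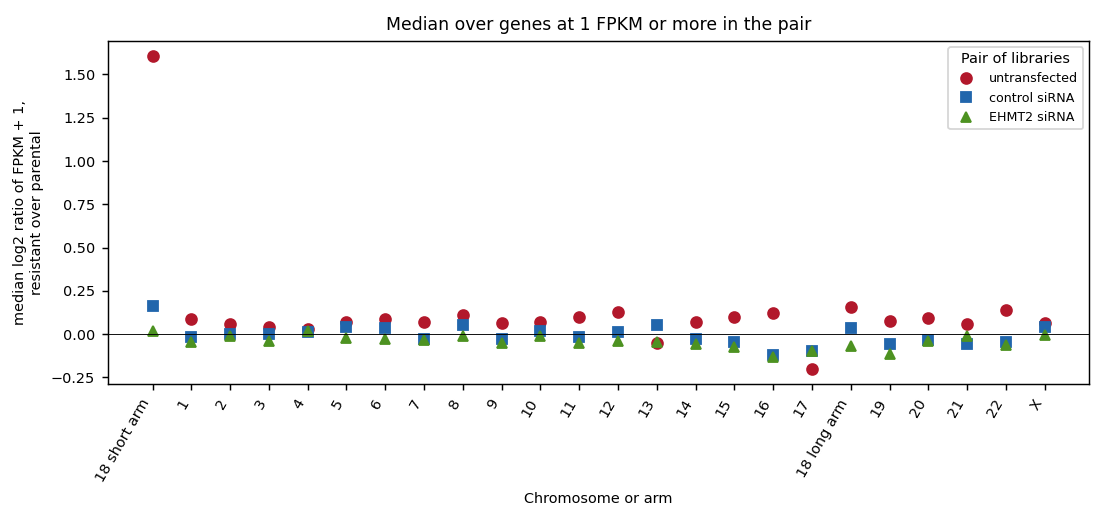
Median log2 ratio of FPKM + 1, resistant over parental, over genes at 1 FPKM or more, for the listed genes of the chromosome 18 short arm and for each other chromosome or arm, in 3 pairs of libraries. The short arm lies at 1.60 in the untransfected pair, and every other point lies between −0.20 and 0.17.

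Many of these genes encode one subunit of a complex whose other subunits come from other chromosomes, which allows a comparison within complexes and families. Of 67 such partners and relatives, 66 reached 1 FPKM in the untransfected pair. Their median ratio was 0.20, and 3 were at least 2-fold higher, namely SPC25 of the NDC80 complex, SPG7 of the m-AAA protease and LPIN1, a lipin. Over all genes in this pair the median was 0.07, and 3.48% were at least 2-fold higher. In all 26 sets compared, the gene of the short arm had a higher ratio than each of its partners. THOC1 had 2.58, against 0.30 for THOC6, the highest of 5 other THO subunits, and NDC80 had 2.27, against 1.35 for SPC25, 0.54 for SPC24 and 0.48 for NUF2. NDUFV2 had 1.82, against 0.78 for NDUFS6 and 0.19 for NDUFV1, its neighbour in the NADH-oxidising module, and SEH1L had 1.46, against 0.45 for NUP107. The short arm genes were chosen on this pair, and the partner list was drawn up with earlier results of these data known. This is therefore a description.

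**Figure D4:**
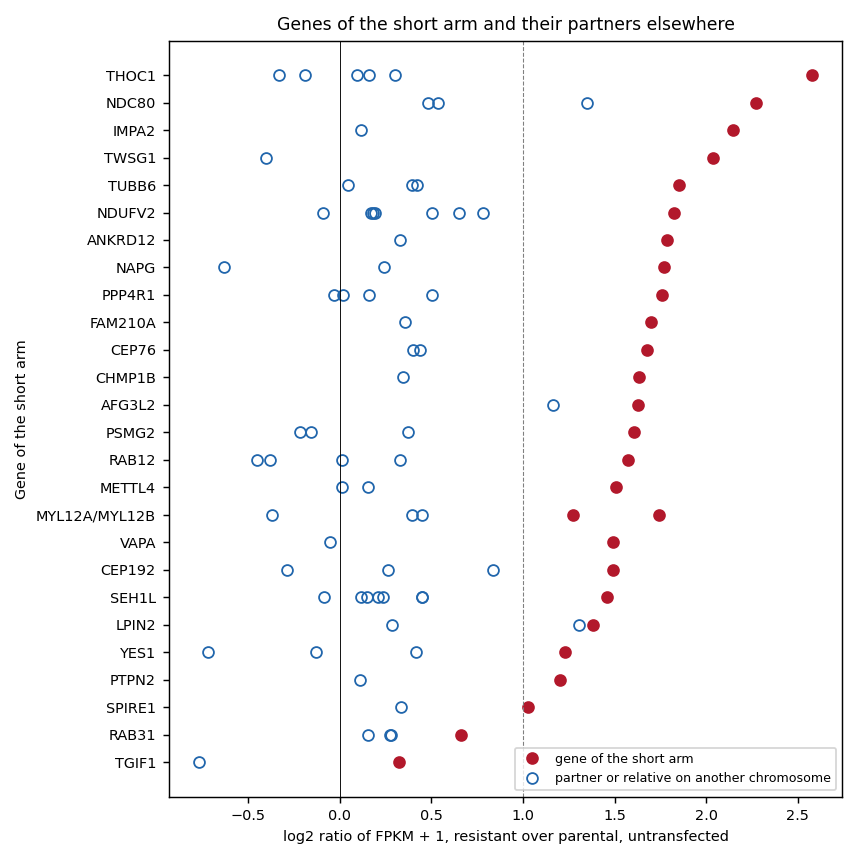
Log2 ratio of FPKM + 1, resistant over parental, in untransfected cells, for genes of the short arm (filled) and their partners or relatives on other chromosomes (open), 1 point a gene. The filled point lies to the right of every open point in all 26 rows, and 3 open points lie past 2-fold.

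With control siRNA none of these genes differed 2-fold between the lines, and most were lower in resistant cells than without transfection. In resistant cells 32 of 38 were at least 2-fold lower with control siRNA than untransfected, with a median ratio of −1.51, where 3.87% of all genes were at least 2-fold lower and 4.32% higher. The ratio was −3.04 for THOC1, −2.51 for ENOSF1 and −2.27 for MPPE1, while TGIF1 had −0.18, GNAL −0.19 and ZBTB14 0.05. In parental cells 0 of 37 were 2-fold apart in either direction, the median was 0.06, and 0.954% of all genes were at least 2-fold higher and 2.08% lower. RNMT, CHMP1B and MYL12A were the lowest there, at −0.82, −0.88 and −0.85. Both comparisons share the untransfected libraries that chose the list.

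The line difference was then tested in the 4 siRNA libraries, which the choice of genes did not use. An additive limma fit with line and siRNA as terms was made over 11565 genes, with their interaction as the error. Of 37 members tested, 1 rose and 1 fell in resistant cells at an adjusted p under 0.05, where 4.29% of all genes rose and 4.25% fell. The shares are near those of all genes. MYL12A rose by 0.71 (limma, SE 0.14, Benjamini-Hochberg adjusted p = 0.0351), and was higher in resistant cells in both pairs, at 229 in resistant and 121 in parental cells under control siRNA. That call was lost without limma's mean-variance trend. ENOSF1 fell by 0.74 (SE 0.13, adjusted p = 0.0258, limma), opposite in sign to the untransfected pair. Of its exonic bases 10.8% overlap other genes, TYMS among them, and reads of overlapping exons cannot be told apart. Between the lines 0 members were at least 2-fold apart in either siRNA pair. With EHMT2 siRNA 1.54% of all genes were at least 2-fold higher and 1.55% lower, and with control siRNA 1.6% were higher and 0.96% lower. USP14, with ratios of −0.09 and −0.12, IMPA2, with 0.04 and 0.05, and TUBB6, with 0.04 and 0.02, were nearly equal in the lines. The median of the members was 0.02 with EHMT2 siRNA, against −0.05 over all genes, and 0.17 with control siRNA, against −0.02 over all genes.

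The second term of that fit asked what EHMT2 siRNA did to these genes. Here the members split by gene, and the median of the members was 0.02, against 0.07 over all genes. Of 37 members tested 10 rose and 3 fell with EHMT2 siRNA, where 24.4% of all genes rose and 18.4% fell, so the share that rose was near that of all genes and the share that fell was smaller, without a test of that difference. MYL12B rose by 1.35 (SE 0.14, adjusted p = 0.00131, limma), MYL12A by 1.26 (SE 0.14, adjusted p = 0.00159, limma) and TUBB6 by 1.11 (SE 0.11, adjusted p = 0.00113, limma). MYL12B had an FPKM of 629 with EHMT2 siRNA and 276 with control siRNA in resistant cells, and 501 with EHMT2 siRNA and 174 with control siRNA in parental cells, and in each line the EHMT2 siRNA library was more than 2-fold the control library. Counts at 2-fold are in log2(FPKM + 1) unless FPKM is named. On that scale MYL12A, MYL12B and TUBB6 were the members at least 2-fold higher in resistant cells, where 5.22% of all genes were. The same 3 were so in parental cells, where 7.48% of all genes were. On that scale 0 members were 2-fold lower, where 4.04% of all genes in resistant and 3.51% in parental cells were. In FPKM without the added 1, GNAL was 2.32-fold higher in parental cells and PTPRM had 0.495 times its control level there, and with 0.1 added 4 members were at least 2-fold higher in parental cells.

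Smaller rises passed the test in genes of several tasks. GNAL, at low levels, rose by 0.77 (SE 0.16, adjusted p = 0.00967, limma), and MPPE1, which overlaps it, by 0.65 (adjusted p = 0.0114). TWSG1 rose by 0.64 (adjusted p = 0.0104), ANKRD12 by 0.63 (adjusted p = 0.0131) and VAPA by 0.60 (adjusted p = 0.00814). RNMT rose by 0.56 (adjusted p = 0.0198) and RAB31 by 0.53 (adjusted p = 0.0135). PTPRM fell by 0.59 (adjusted p = 0.0268), NDC80 by 0.56 (adjusted p = 0.0135) and SMCHD1 by 0.41 (adjusted p = 0.0496), all with limma. SMCHD1 lost its call when FPKM was scaled to a common total (adjusted p = 0.109, limma) or the trend left out (adjusted p = 0.0655). Each of these moved the same way in both lines. The error of the fit is the difference between the lines, so calls favour such genes and their agreement is no further check. NDC80 had 10.7 with EHMT2 siRNA and 17.6 with control siRNA in resistant cells. In parental cells NDC80 had 13.7 with EHMT2 siRNA and 19.0 with control siRNA.

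At the start regions shown above, the divergent neighbours were not called together. NDC80 fell, while METTL4, which starts 2 bases away, had 0.03 (SE 0.16, adjusted p = 0.891, limma). RNMT rose, while FAM210A had −0.06 (SE 0.17, adjusted p = 0.789, limma), with a ratio of −0.29 in the resistant line and 0.17 in the parental line. The difference within such a pair was not tested. In the untransfected line pair all 4 of these genes were at least 2-fold higher. Another divergent pair of the list, SPIRE1 and PSMG2, did not differ in call. SPIRE1 had 0.03 (adjusted p = 0.858, limma) and PSMG2 had 0.02 (adjusted p = 0.923, limma) for EHMT2 siRNA.

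**Figure D5:**
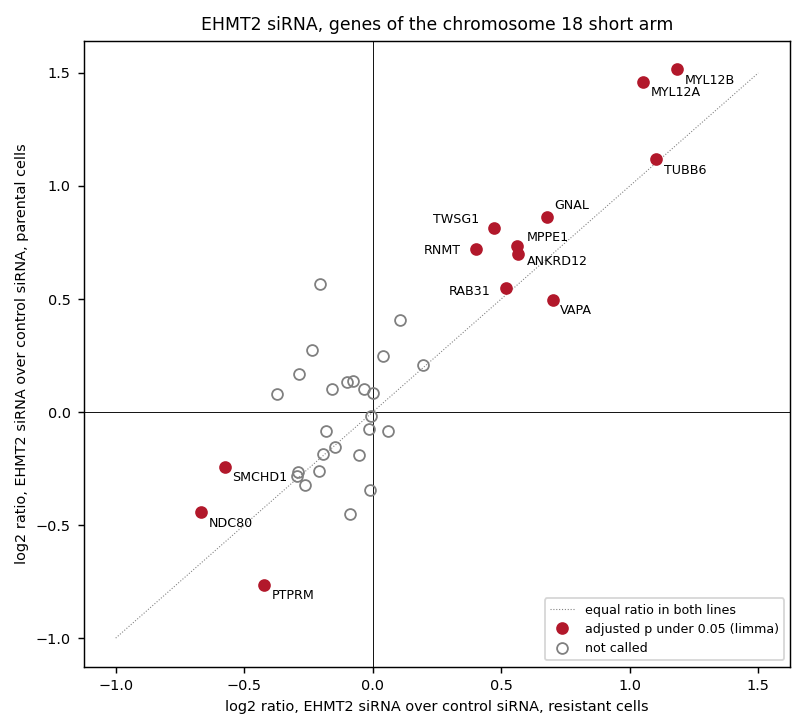
Log2 ratio of FPKM + 1, EHMT2 siRNA over control siRNA, in resistant cells (horizontal) and parental cells (vertical) for the 38 detected genes, filled where limma called the gene over both lines. MYL12A, MYL12B and TUBB6 lie past 1 on both axes, and NDC80, SMCHD1 and PTPRM lie below 0 on both.

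These p-values rest on 1 residual degree of freedom before moderation, and they measure only the spread among these libraries. When all 6 libraries were fitted together, 0 of 11551 genes passed an adjusted p of 0.05 for either term (limma, Benjamini-Hochberg). The 13 members then had adjusted p-values of 0.0743 (MYL12A) to 0.629 (SMCHD1) for EHMT2 siRNA. The error of that fit takes in the line difference of the untransfected pair, on which the list was chosen. Neither these p-values nor the members' counts from that fit are therefore a check of the 4-library calls. At an unadjusted p under 0.05 the 6-library fit had 3 members higher and 0 lower for EHMT2 siRNA, where 15.7% of all genes were higher and 11% lower. The 4-library fit had 10 higher and 5 lower at that p, where 30% of all genes were higher and 22.7% lower. For the line, the 4-library fit had 6 members higher and 3 lower at an unadjusted p under 0.05, where 14.1% of all genes were higher and 16.3% lower. The 6-library fit had 5 higher and 0 lower for the line, where 3.06% of all genes were higher and 2.02% lower, but it includes the untransfected pair on which the list was chosen, so nothing is read from that count.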

How the data were processed

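Per the labels' protocols, RNA was sequenced with TruSeq v2 libraries, a kit that does not mark strand. HISAT2 2.2.1, StringTie 2.1.1, cutadapt 4.9, FastQC 0.12.1 and GRCh38 appear in the submitters' processing notes, without their order. The annotation release was not given in those sources. The authors deposited one table of FPKM for each library. Low values show no steps of whole reads, so no count test was possible.

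Tables of 19957 rows were joined by gene, keeping for each of 19942 symbols its row with the highest mean. Coordinates and shared exonic bases come from GENCODE 29, in which 19887 symbols had an entry, and start regions from RefSeq (GRCh38.p14), which held 40 of the 44 members. Ratios are log2(FPKM + 1) differences for genes at 1 FPKM or more in either library of a pair, and 2-fold was the threshold. Limma 3.58.1 in R 4.3.3 was fitted with a mean-variance trend to genes of mean FPKM 1 or more over the 4 siRNA libraries, and Benjamini-Hochberg adjustment was made over all genes, with a threshold of 0.05. The untransfected libraries were left out because the members were chosen on them. The procedure was tested on simulated data. Other steps used Python 3.11.15 with pandas 2.3.3 and scipy 1.17.1.

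The members, the partner list and the tests were chosen with earlier results of these data known. All members are named. Members of mean FPKM 1 or more are given with values in all libraries or with the untransfected pair and the range of the siRNA libraries. PRELID3A was named after its values were seen. A further gene is not reported here. Alternatives were other pseudocounts, filters, scalings and thresholds, the removal of overlapping genes, a fit of all 6 libraries, and that fit without each library in turn.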

Additional observations from a re-analysis of the deposited data

Results flagged for a closer look

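THOC1 and ENOSF1 had line differences of opposite sign with and without siRNA, each at least 1.5-fold. The log2 ratio of resistant over parental cells was −0.61 for THOC1 with control siRNA, against 2.58 untransfected. ENOSF1 had −0.74 with EHMT2 siRNA and −0.75 with control siRNA, against 1.71 untransfected. Each value comes from 1 pair of libraries, and the difference between the pairs was not tested. TYMS, whose exons ENOSF1 overlaps, had the same signs.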

How the results depend on the processing

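The count of 34 genes at least 2-fold higher in untransfected resistant cells stayed within 1.5 times under each alternative pseudocount, filter and scaling, and was 7 at a 4-fold threshold. The median of 1.60 was 1.84 after every library was scaled to 1 common FPKM total, which moved the median of all genes in that pair by 0.22. It moved that median by 0.11 for EHMT2 siRNA over control siRNA and by 0.16 for control siRNA over untransfected, both in parental cells. In the 4-library fit, the count of members that rose in the resistant line was 2 in place of 1 with a pseudocount of 0.1, no filter, a mean FPKM of 5 or more, or quantile normalisation, and 0 without the trend. The count that fell with EHMT2 siRNA was 5 in place of 3 with quantile normalisation. SMCHD1 lost its call with rescaled FPKM (adjusted p = 0.109, limma) and without the trend (adjusted p = 0.0655, limma).

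With all 6 libraries, all 4 counts of called members were 0, and ENOSF1 turned to 0.0737 for the line. The 6-library fit takes in the untransfected pair, on which the list was chosen, so these values are no check of the 4-library calls. Leaving out 1 library of the 6-library fit gave 0 to 10 members rising and 0 to 3 falling with EHMT2 siRNA. For the line it gave 0 to 1 rising and 0 to 1 falling. All counts above 0 come from leaving out an untransfected library. The other untransfected library then has a term of its own, so the estimates are those of the 4-library fit. Calls kept there are no further check of that fit, and SMCHD1 lost its call without the untransfected resistant library. The calls for EHMT2 siRNA were lost when any one of the siRNA libraries was left out. Without one library in turn, NDC80 ranged from −1.26 to 0.15, SMCHD1 from −1.005 to 0.19, MPPE1 from −0.0521 to 1.35 for EHMT2 siRNA, and ENOSF1 from −0.74 to 0.48 for the line. Without a siRNA library, the additive fit takes the line difference partly from the untransfected pair, on which the list was chosen. The lost calls and these ranges carry that difference. They do not show how stable the estimates of the 4-library fit are. No library could be left out of the 4-library fit, which then has no residual degree of freedom. No paired analysis was possible because each group holds 1 library. Depth is unknown, so counting error could not be given.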
